A study of Homo sapiens with 3 samples.

Results

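COX1, COX2, COX3, ATP6, ATP8 and CYTB are 6 of the 13 protein genes of human mitochondrial DNA. They were taken from 3 deposited lists of A-to-G positions as the entries on the mitochondrial chromosome whose gene name does not start with ND. All 6 genes appeared in every list. They held 83 of the 3516 positions listed for DDX41-ADARcd with the empty vector as control, and 78 of the 10407 with ADARcd alone as control. For ADARcd alone, with the empty vector as control, they held 109 of 6413. Over the 3 lists these were 187 distinct positions of 16820.

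The libraries came from THP-1, a monocytic leukemia cell line of human origin, 7 days after transduction with pGK-GFP retrovirus made in 293T cells. There was 1 library in each of 3 groups: DDX41 joined to the hyperactive catalytic domain of ADAR (DDX41-ADARcd), that domain without DDX41 (ADARcd alone), and the empty retrovirus. The assay, HyperTRIBE, marks RNA near the fused protein by turning A into inosine, which is read as G. The growth, the vector and the harvest of total RNA are described alike for all groups. With 1 library per group there is no replicate error, so each test compares the reads of libraries, not the conditions. Of 19 THP-1 markers, 10 had listed positions in DDX41-ADARcd with the empty vector as control, 12 with ADARcd alone as control, and 13 in ADARcd alone. CD14, CD33, MPO, ITGAM and CYBB were in no list, and neither was any of 8 markers of other cells, such as the 293T packaging line. A gene enters a list by an edited read, so its absence does not show that it is not expressed.

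COX1, COX2 and COX3 form the catalytic core of complex IV, cytochrome c oxidase, which passes electrons to oxygen. ATP6 and ATP8 belong to the membrane sector of the ATP synthase, complex V, and CYTB is the mitochondrially encoded subunit of complex III. Their mRNAs have no introns, are cut from long transcripts of the mitochondrial DNA and are translated inside the mitochondrial matrix. DDX41 is a DEAD-box helicase known mainly from the nucleus and the cytoplasm.

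On GRCh38 (GENCODE 29) all 6 genes lie on the plus strand of chrM. COX1 (MT-CO1) spans chrM:5904-7445, COX2 (MT-CO2) chrM:7586-8269 and COX3 (MT-CO3) chrM:9207-9990. ATP8 (MT-ATP8) spans chrM:8366-8572, ATP6 (MT-ATP6) chrM:8527-9207 and CYTB (MT-CYB) chrM:14747-15887. Every listed position but 8365 lies in the annotated coding gene.

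The sequences below show where the A with most edited reads of each gene lay, first for DDX41-ADARcd and then for ADARcd alone. Where positions of a gene had equal edited reads, the one with the higher level, and so the lower depth, is shown. They are taken from GENCODE 29 transcripts (GRCh38, plus strand of chrM), 10 bases on each side, with the listed A in capitals. ADAR enzymes are known to favour U or A before and G after the edited base, and these neighbours can be read from each line.
COX1 in DDX41-ADARcd, chrM:7285-7305: ctctaacagcAgtaatattaa
COX2 in DDX41-ADARcd, chrM:7745-7765: aacatctcagAcgctcaggaa
COX3 in DDX41-ADARcd, chrM:9593-9613: cccactcctaAacacatccgt
ATP6 in DDX41-ADARcd, chrM:8757-8777: ttttattgccAcaactaacct
ATP8 in DDX41-ADARcd, chrM:8443-8463: aaaaatattaAacacaaacta
CYTB in DDX41-ADARcd, chrM:15705-15725: taagccaatcActttattgac
COX1 in ADARcd alone, chrM:7364-7384: accctccataAacctggagtg
COX2 in ADARcd alone, chrM:7868-7888: cttaccatcaAatcaattggc
COX3 in ADARcd alone, chrM:9904-9924: ttggcttcgaAgccgccgcct
ATP6 in ADARcd alone, chrM:8785-8805: ctcctgcctcActcatttaca
ATP8 in ADARcd alone, chrM:8495-8515: ataaaaaattAtaacaaaccc
CYTB in ADARcd alone, chrM:15639-15659: tcctcatcctAgcaataatcc

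The COX, ATP and CYTB positions carried very few edited reads at great depth. Levels of editing are given as the percentage of the reads at a position that have G. In DDX41-ADARcd, against the empty vector, the largest number of edited reads at any of the 83 positions was 3, and in ADARcd alone, at any of 109 positions, it was 4. No position of the 6 genes in these 2 lists reached a level of 0.5%. The median level was 0.112% (0.0662% to 0.498%) in DDX41-ADARcd and 0.0716% (0.0391% to 0.388%) in ADARcd alone. With ADARcd alone as the control of DDX41-ADARcd it was 0.114% (0.0662% to 6.90%), over 22 positions in COX1, 19 in COX2, 14 in COX3, 14 in ATP6, 3 in ATP8 and 6 in CYTB.

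Of the 83 DDX41-ADARcd positions, 69 (83.1%, exact Clopper-Pearson 95% interval 73.3% to 90.5%) rested on 1 edited read. Of the 109 ADARcd positions, 89 did (81.7%, 73.1% to 88.4%). Over all listed positions of the same lists these shares were 81.5% and 74.8%. With a single edited read, the level is the inverse of the depth. The 6 genes had a median of 981 reads at their DDX41-ADARcd positions and of 1615 at their ADARcd positions, against 220 and 286 over all listed positions, where the median levels were 0.515% and 0.434%. Among listed positions the 6 genes thus had lower levels together with greater depth.

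**Figure D1:**
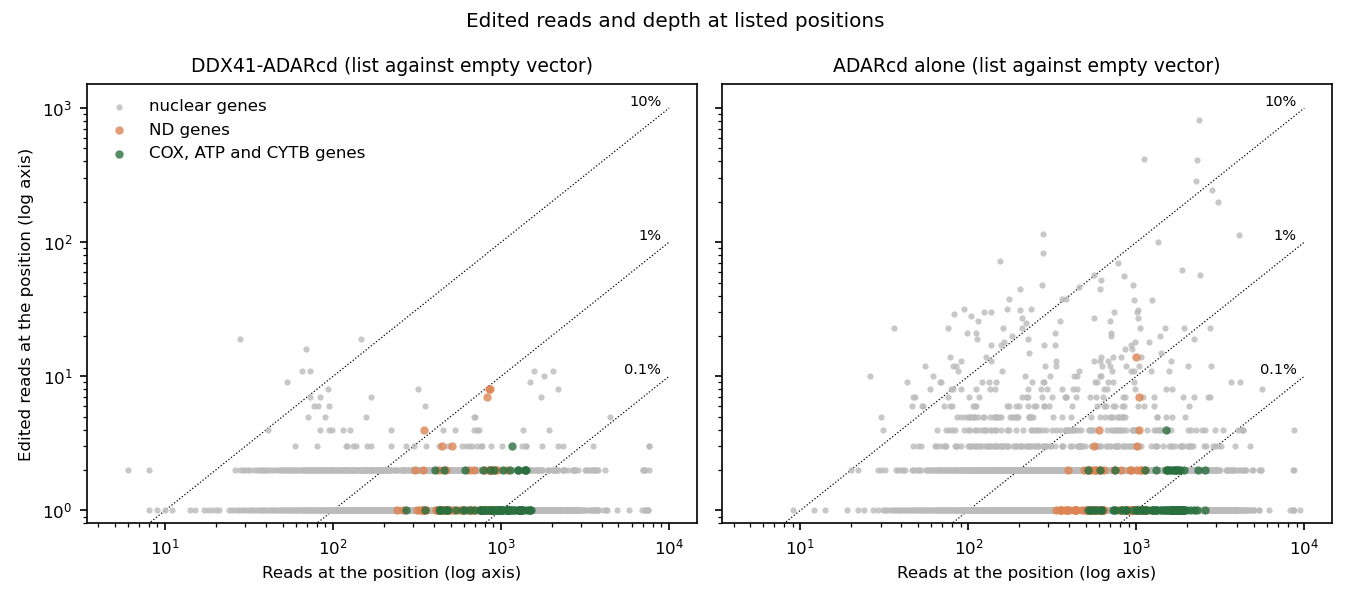
Edited reads (y axis, log scale) against all reads (x axis, log scale) at each listed position of DDX41-ADARcd (left) and ADARcd alone (right), both against the empty vector; dotted lines mark levels of 0.1%, 1% and 10%. The COX, ATP and CYTB positions (green) lie at the lower right, with no more than 3 (DDX41-ADARcd) and 4 (ADARcd alone) edited reads, while nuclear genes reach 19 and 816.

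None of these positions passed a test. A two-sided Fisher's exact test of edited and other reads, adjusted by Benjamini-Hochberg over all positions of a comparison with 10 or more reads in both libraries, called 0 of 83 positions of the 6 genes in DDX41-ADARcd against the empty vector, where 0% of all 3512 tested positions were called. It called 0 of 109 in ADARcd alone against the empty vector, where 0.203% of 6412 were called higher. In DDX41-ADARcd against ADARcd alone it called 0 of 85 (78 of the deposited list, and 7 at which both libraries had edited reads). Of all 9227 tested there, 0% were called higher and 0.282% lower. Only 400 of the 9227 had edited reads in both libraries and so could come out lower. The 26 called lower were among them. At an unadjusted p under 0.05 the count for the 6 genes was also 0 in each comparison.

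Depth set what could be seen. At the median depths of these positions, an unadjusted p under 0.05 would have needed 40 edited reads (4.08%) in DDX41-ADARcd against the empty vector, 60 (3.72%) in ADARcd alone against the empty vector, and 4 (0.411%) in DDX41-ADARcd against ADARcd alone. The limit against the empty vector came from that library, which had a median of 91 and 96 reads at the positions of these lists. A level of 0.1% to 0.5% against the empty vector was therefore not detectable at this depth. Since a listed position has 0 edited reads in its control, no deposited entry could come out lower. Intervals and floors cover counting error alone, because PCR copies of a molecule cannot be told from separate molecules here.

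COX1, the largest subunit of complex IV, had 23 listed positions in DDX41-ADARcd and 46 in ADARcd alone, each against the empty vector. Per 100 A of the gene this is 5.49 and 10.98. Among its positions with most edited reads in DDX41-ADARcd, the one with the highest level, 7295, had 2 edited of 854 reads. It had 0 of 1182 in ADARcd alone and 0 of 105 in the empty vector. That is a level of 0.234% (0.0284% to 0.843%) in DDX41-ADARcd, with a floor of 3 reads at 0.254% in ADARcd alone and 2.86% in the empty vector. In ADARcd alone the position chosen in the same way was 7374, with 2 of 1129 reads (0.177%, 0.0215% to 0.638%) against 0 of 196 in the empty vector. In DDX41-ADARcd 5 positions and in ADARcd alone 9 had 2 edited reads, and no COX1 position had more. For COX1 as for the other genes, reads of DDX41-ADARcd at positions listed for ADARcd alone are not used here, apart from 7 positions in both lists.

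COX2, the subunit that takes electrons from cytochrome c, held the position with most edited reads in DDX41-ADARcd. Position 7755 had 3 edited of 1159 reads in DDX41-ADARcd, 0 of 1434 in ADARcd alone and 0 of 116 in the empty vector. The level was 0.259% (0.0534% to 0.755%) in DDX41-ADARcd. This interval spans the floor of 0.209% in ADARcd alone and lies below that of 2.59% in the empty vector. The p of 7755 against ADARcd alone, 0.0892 in Fisher's exact test, was the smallest of the 6 genes and was 0.56 after adjustment. The position was listed for 0 edited reads in ADARcd alone and is named for its edited reads in DDX41-ADARcd. Both choices favour a small p, so neither the floor nor this p is support for a difference. At 7755 DDX41-ADARcd also had 1 read with C. The base before this A is G, the neighbour that ADAR enzymes favour least. COX2 alone of the 6 genes had more listed positions in DDX41-ADARcd (21, or 10.7 per 100 A) than in ADARcd alone (15, or 7.65), although its depth was lower in DDX41-ADARcd. This difference was not tested, since positions without an edited read are not used here.

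COX3, the remaining core subunit, held the position with most edited reads in ADARcd alone. Position 9914 had 4 of 1497 reads (0.267%, 0.0728% to 0.683%) in ADARcd alone and 0 of 179 in the empty vector. No read with C or T was seen there in either library, and the A stands between A and G. Of the 109 ADARcd positions of the 6 genes, 47 had a read with C and 35 a read with T. COX3 had 16 listed positions in DDX41-ADARcd and 24 in ADARcd alone, or 7.62 and 11.4 per 100 A. Its position 9603 had 2 of 1266 reads in DDX41-ADARcd (0.158%), 0 of 1869 in ADARcd alone and 0 of 100 in the empty vector.

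ATP6, the subunit that forms the proton path of the ATP synthase, had 15 listed positions in DDX41-ADARcd and 15 in ADARcd alone, which is 7.28 per 100 A in each. Position 8767 had 2 of 783 reads in DDX41-ADARcd (0.255%), 0 of 878 in ADARcd alone and 0 of 41 in the empty vector. Position 8795 had 2 of 607 reads in ADARcd alone (0.329%) and 0 of 26 in the empty vector.

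ATP8, the small subunit whose reading frame overlaps that of ATP6 by 46 bases, had 2 listed positions in DDX41-ADARcd and 3 in ADARcd alone. Positions 8534 and 8536 of ADARcd alone lie in the overlap, were listed for both genes and were counted as 1 position each in the totals. Position 8453 had 2 of 614 reads in DDX41-ADARcd (0.326%), 0 of 625 in ADARcd alone and 0 of 40 in the empty vector. Position 8505 had 2 of 744 reads in ADARcd alone (0.269%) and 0 of 33 in the empty vector. Reads over the overlap cannot be assigned to ATP8 or ATP6.

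The list of DDX41-ADARcd against ADARcd alone named ATP8 for position 8365, which is 1 base before the annotated start of the gene and 1 base after the end of MT-TK, the tRNA for lysine that is cut from the same transcript. It had 2 edited of 29 reads in DDX41-ADARcd (6.90%, 0.846% to 22.8%) and 0 of 37 in ADARcd alone, with p = 0.189 and an adjusted p of 0.56 in Fisher's exact test. This was the highest level of the 6 genes and the lowest depth. The second highest level in that list was 0.498%.

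CYTB, the subunit of complex III that binds ubiquinone, had the fewest listed positions per 100 A in both lists against the empty vector, 1.84 in DDX41-ADARcd (6 positions) and 2.45 in ADARcd alone (8 positions). It also had a low depth, a median of 448.5 reads at its positions in DDX41-ADARcd and 549.5 in ADARcd alone. Position 15715 had 2 of 402 reads in DDX41-ADARcd (0.498%, 0.0603% to 1.79%), 0 of 462 in ADARcd alone and 0 of 19 in the empty vector. Position 15649 had 2 of 515 reads in ADARcd alone (0.388%, 0.0471% to 1.4%) and 0 of 18 in the empty vector. At 18 and 19 reads the floors of the empty vector are 16.7% and 15.8%, far above both levels.

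**Figure D2:**
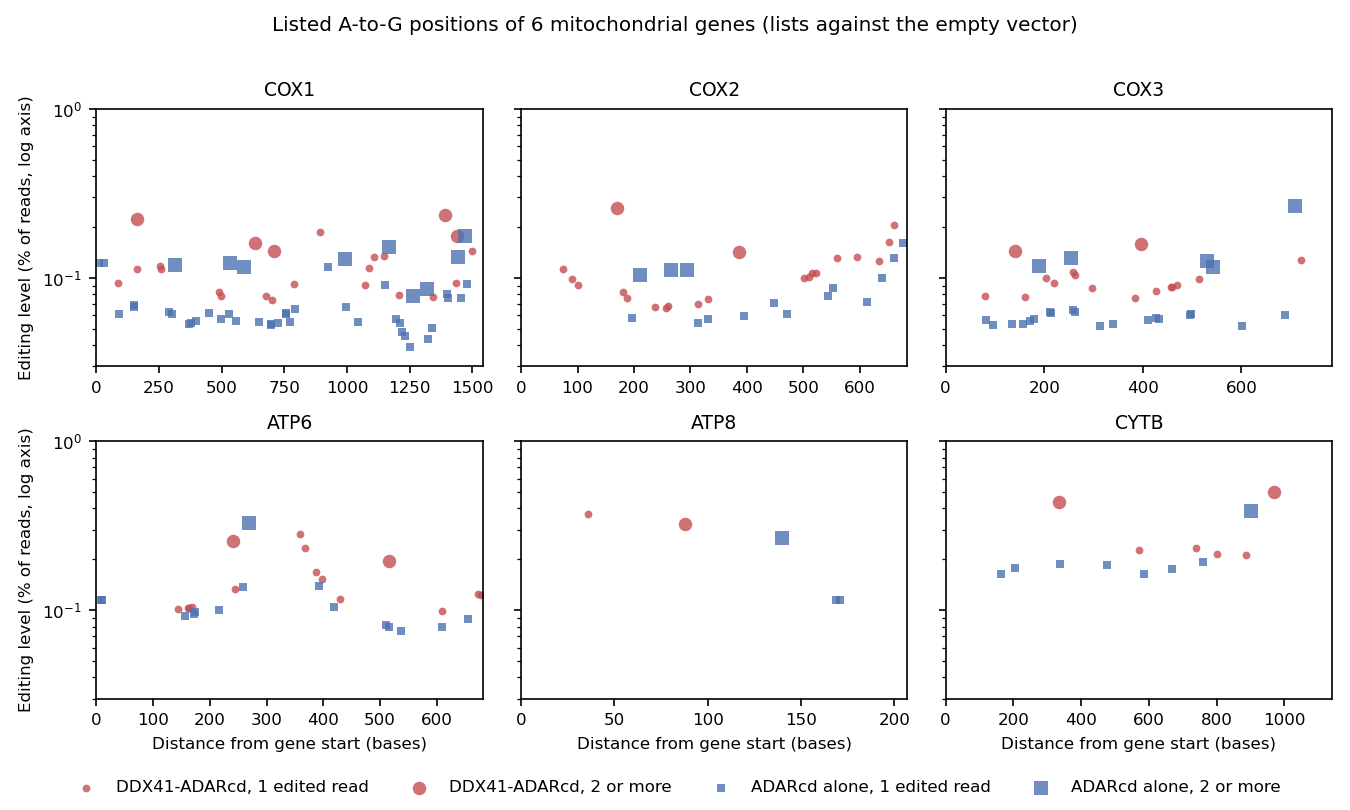
Editing level (y axis, percent of reads, log scale) against the distance from the gene start (x axis, bases) for the listed positions of each gene in DDX41-ADARcd (circles) and ADARcd alone (squares), both against the empty vector; large symbols have 2 or more edited reads. Levels stay under 0.5% in all 6 genes, and positions with 1 edited read follow the depth of their library.

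Most positions listed for DDX41-ADARcd were not listed for ADARcd alone. Of the 83 DDX41-ADARcd positions, 7 (8.43%) were listed for ADARcd alone too, and these are 6.42% of its 109. The other 76 had 0 edited reads in ADARcd alone, since they were in the list against that library. Over all genes the shared positions were 11.4% of the DDX41-ADARcd list and 6.27% of the ADARcd list, and over the ND genes 17.5% and 16.7%. The 2 lists share the empty vector library, so no test was made of the overlap.

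The 7 shared positions were 6402 in COX1, 7899 and 7916 in COX2, 9465, 9468 and 9632 in COX3, and 9041 in ATP6. At 6 of them each library had 1 edited read. At 9041 DDX41-ADARcd had 2 of 1023 reads (0.196%) and ADARcd alone 1 of 1262 (0.0792%), with 0 of 52 in the empty vector. The level was higher in DDX41-ADARcd at all 7, by a median of 0.0252 percentage points, and its depth was lower, a median of 1199 reads against 1718. At the 6 with 1 edited read in each library, the level is the inverse of the depth. The higher level there thus follows from the lower depth. No difference passed the test, with adjusted p from 0.659 to 1 in Fisher's exact test, and no position had 2 edited reads in both libraries.

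Reads with C or T in place of A, which A-to-I editing does not give, were found at the same positions as the reads with G. In DDX41-ADARcd, against the empty vector, the 83 positions held 98 reads with G, 49 with C and 21 with T among 79990 reads, or 123, 61.3 and 26.3 per 100000 reads. In ADARcd alone the 109 positions held 131 reads with G, 100 with C and 42 with T among 159676, or 82.0, 62.6 and 26.3 per 100000. Listing required at least 1 read with G at each position and made no such demand of C or T, so the count of G has a minimum of 83 and of 109 by selection.

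Counting positions with 2 or more reads of a base, 14 of the 83 DDX41-ADARcd positions had 2 or more with G, 12 with C and 4 with T. Among the 109 ADARcd positions the numbers were 20 with G, 24 with C and 7 with T. The COX3 position 9461 had 2 reads with G and 8 with C among 1531 in ADARcd alone. In the ND genes the counts were 22 with G, 17 with C and 7 with T of 80 positions for DDX41-ADARcd, and 23, 19 and 4 of 84 for ADARcd alone. In nuclear genes they were 615 with G, 228 with C and 72 with T of 3353 for DDX41-ADARcd, and 1575, 356 and 131 of 6220 for ADARcd alone. The empty vector had 3 reads with C and 1 with T among 7747 at the DDX41-ADARcd positions, and 2 of each among 11987 at the ADARcd positions. Every listed position had 1 read with G by selection and needed only 1 more to be counted for G, while C and T had no such start. The counts at 2 or more reads are therefore tilted to G in every gene set. The part of base-calling or alignment errors in the G reads was not tested.

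**Figure D3:**
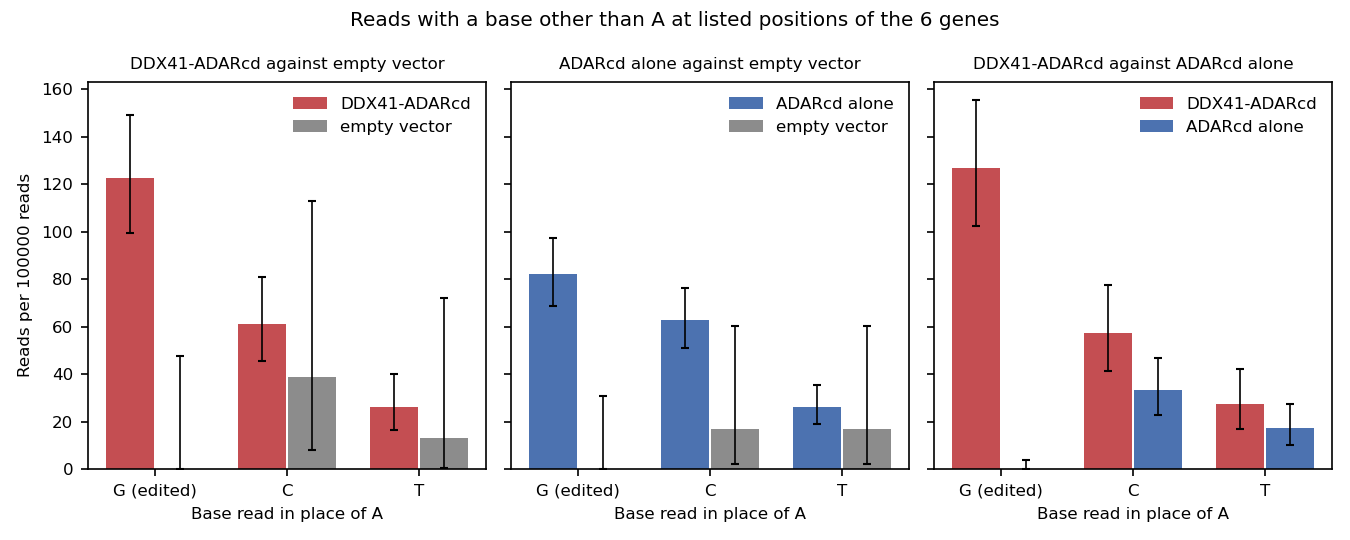
Reads with G, C or T per 100000 reads (y axis, from 0) at the listed positions of the 6 genes, for the first library of each list (left bar) and its control (right bar); error bars are exact 95% intervals for counting error. G exceeds C, with 82.0 against 62.6 per 100000 in ADARcd alone, but each position was listed for having a G read and for 0 G reads in the control.

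The share of listed A with the neighbours that ADAR enzymes favour lay near the share of all A of the 6 genes, which was within the interval for both libraries. U or A before and G after (TAG or AAG on the transcribed strand, the plus strand) was found at 5 of 83 positions in DDX41-ADARcd (6.02%, exact interval 1.98% to 13.5%) and at 12 of 109 in ADARcd alone (11%, 5.82% to 18.4%). Of 1417 A in the 6 genes with both neighbours in the gene, 7.76% have them. Nuclear positions with 5 or more edited reads had them in 40% of 25 (21.1% to 61.3%) for DDX41-ADARcd and in 40.9% of 254 (34.8% to 47.3%) for ADARcd alone. With 1 edited read the nuclear shares were 14.4% and 17.7%. The share over all nuclear A was not computed, so these nuclear shares have no background of their own. The 7.76% of the 6 genes does not serve as one.

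Among the 12 ADARcd positions with these neighbours are the ones printed above for COX3, gaAgc, and CYTB, ctAgc. COX3 position 9737, with 2 of 1593 reads, is another. Among the 20 ADARcd positions with 2 or more edited reads these 3 have the favoured neighbours (15%, 3.21% to 37.9%). Among the 14 of DDX41-ADARcd none does (0%, 0% to 23.2%). Both intervals include the 7.76% of all A of the 6 genes. The base before the A was G at 12.0% of DDX41-ADARcd positions and 19.3% of ADARcd positions, against 13.8% of all A of the 6 genes. Over all nuclear positions it was G at 30.7% for DDX41-ADARcd and 25.8% for ADARcd alone, and at those with 5 or more edited reads at 12% (3 of 25) and 4.33% (11 of 254). For this base too, no share over all nuclear A was computed.

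**Figure D4:**
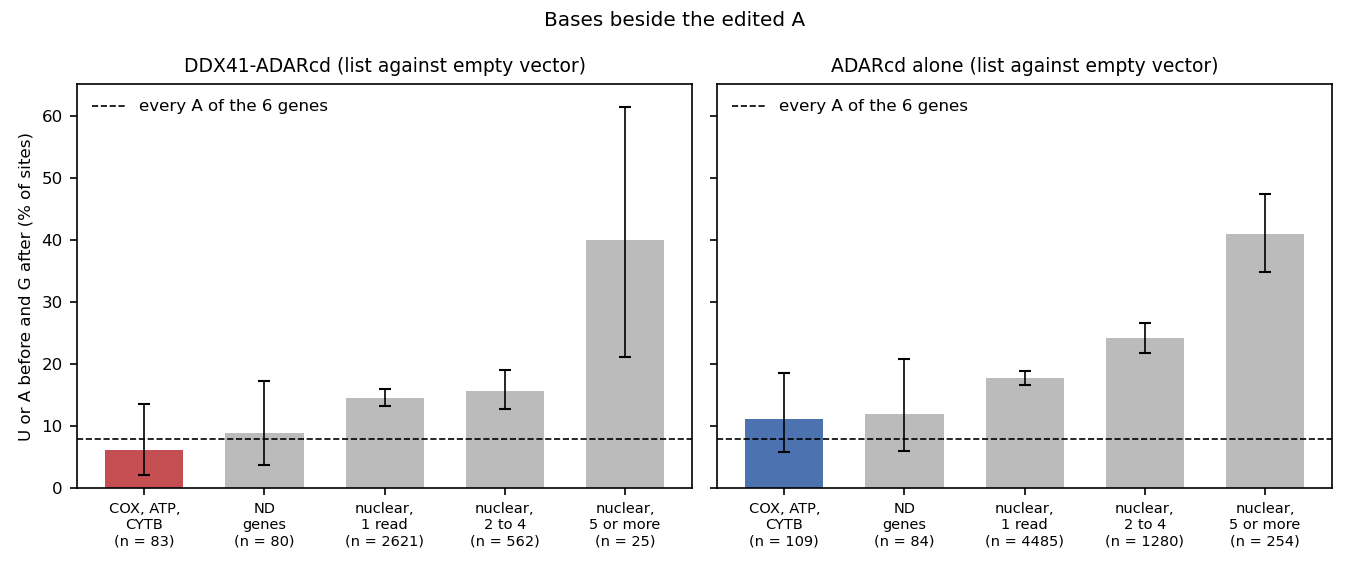
Share of listed positions with U or A before and G after the edited A (y axis, percent, from 0) in DDX41-ADARcd (left) and ADARcd alone (right), by gene set and number of edited reads; error bars are exact 95% intervals and the dashed line is the share of all A of the 6 genes. The COX, ATP and CYTB bars, 6.02% and 11%, have intervals that include the dashed line at 7.76%. The line is not a background for the nuclear bars, for which none was computed.

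The ND genes, the 7 complex I subunits of the same DNA, had 80 listed positions in DDX41-ADARcd and 84 in ADARcd alone against the empty vector. They reached more edited reads than the COX, ATP and CYTB genes, up to 8 in DDX41-ADARcd and 14 in ADARcd alone, both in ND4. ND5 followed with up to 4 in DDX41-ADARcd, and in ADARcd alone ND2 had up to 4 and ND5 up to 3. In the 6 genes no position had 5 or more. The median level was 0.217% in DDX41-ADARcd and 0.188% in ADARcd alone for the ND genes, at 650.5 and 635 reads. None of the ND positions passed the test either.

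Read depth itself differed between the 6 genes and the libraries. Over the 83 positions listed for DDX41-ADARcd against the empty vector, whose reads are known in all 3 libraries, the median was 981 reads in DDX41-ADARcd, 1285 in ADARcd alone and 91 in the empty vector. The empty vector had the fewest reads at all 83, and ADARcd alone the most at 82. The ratio of DDX41-ADARcd to ADARcd alone had a median of 0.731, against 0.682 over 3353 nuclear positions of the same list (quartiles 0.605 to 0.758) and 0.863 over 80 ND positions. The total reads of a library are not given in the sources, so the ratios can be read relative to each other alone. In bulk RNA, fewer cells with a transcript and less of it per cell cannot be told apart.

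COX1 and COX3 had the lowest ratios of the 6, near the nuclear median, with 0.692 (0.648 to 0.762 over 23 positions) and 0.676 (0.597 to 0.738 over 16). COX2 followed with 0.772 (0.669 to 0.861 over 21). ATP6 with 0.837 (0.799 to 0.892 over 15) and CYTB with 0.858 (0.712 to 0.891 over 6) lay near the ND median. ATP8 had 0.982 and 1.004 at its 2 positions. All positions of ATP6 were above all of COX1 and COX3, while those of COX2 overlapped the positions of COX1, COX3 and ATP6. The CYTB positions overlapped those of ATP6 and lay below both of ATP8. Neighbouring positions share reads, and there was 1 library of each kind, so these ratios carry no replicate check.

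Against the empty vector the ratios at the same 83 positions were 11.5 for DDX41-ADARcd and 14.7 for ADARcd alone. The nuclear medians were 5.67 and 8.51, and the ND medians 17.6 and 18.9. For COX2 the ratios were 9.65 for DDX41-ADARcd and 12.4 for ADARcd alone, and for CYTB 19.4 and 22.7. Positions were listed for an edited read in DDX41-ADARcd, which deeper positions are more likely to have.

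**Figure D5:**
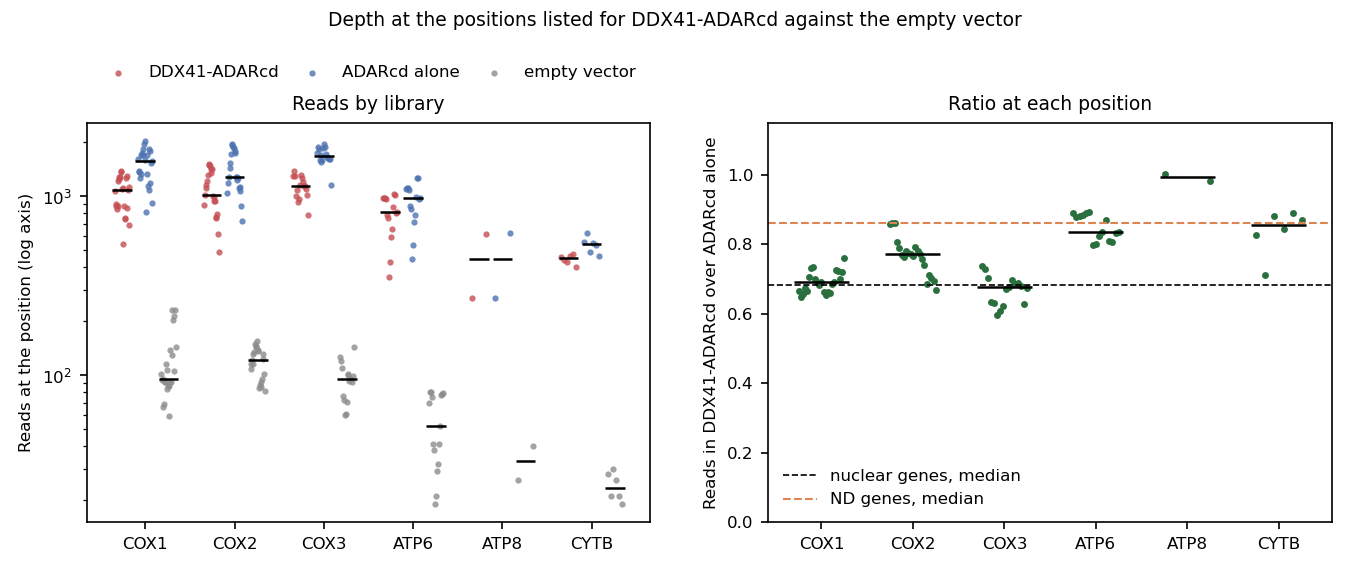
Left, reads (y axis, log scale) at the 83 positions listed for DDX41-ADARcd against the empty vector, by gene, in DDX41-ADARcd, ADARcd alone and the empty vector; right, the ratio of DDX41-ADARcd to ADARcd alone at each position (y axis from 0); black bars are medians. The ratios of COX1 and COX3, 0.692 and 0.676, lie near the nuclear median of 0.682 (black dashed line), and those of ATP6 and CYTB, 0.837 and 0.858, near the ND median of 0.863 (orange dashed line).

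The nuclear-encoded partners of these proteins had listed positions at lower depth. Of 75 nuclear genes of complexes III, IV and V with their assembly factors and CYCS, the cytochrome c that links complexes III and IV, 19 had 38 listed positions in DDX41-ADARcd and 27 had 87 in ADARcd alone, both against the empty vector. Against ADARcd alone, 31 of the genes had 67 positions. None of these positions passed the test. The median level was 0.602% at 174 reads in DDX41-ADARcd and 0.568% at 207 reads in ADARcd alone.

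ATP5F1A, the alpha subunit of the ATP synthase, led with 7 positions in DDX41-ADARcd and 8 in ADARcd alone. ATP5F1B, the beta subunit, had 7 in DDX41-ADARcd, followed by ATP5MC2 and COX7C with 3 each. In ADARcd alone COX4I1, a regulatory subunit of complex IV, had 8, and ATP5PB and COX8A had 6 each, as had LRPPRC, a protein that binds and stabilises mitochondrial mRNAs. Against ADARcd alone, the leading genes were ATP5F1A with 7, ATP5F1B with 6, LRPPRC with 5, and ATP5PF and UQCRC2 with 4 each. The position of ATP5F1A with most edited reads had 2 of 129 (1.55%, 0.188% to 5.49%) in DDX41-ADARcd, and another had 3 of 169 (1.78%, 0.368% to 5.1%) in ADARcd alone. Over all 75 genes the most edited reads at a position were 2 in DDX41-ADARcd and 6 in ADARcd alone.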

How the data were processed

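The deposited values are raw read counts, per the file headers: for each listed position, the reads with every base and their total, in an edited library and a control. Tools named in the submitters' processing notes, without a role, are STAR 2.5, FastQC 0.11.7 and CASAVA 1.4, and the build named is mm10 (mouse). How sites were called and annotated is not given in the sources used here. Coordinates are human: the listed position was A on the GENCODE 29 transcript (GRCh38) at every position of the 6 genes inside an annotated gene. No column names a library: the edited library was read from the first name in the title of each list, and gDNA/wtRNA columns were read as the control. The totals bear on this: they were equal between lists at 402 of 402 positions shared for the empty vector and 3114 of 3114 for DDX41-ADARcd. For ADARcd alone its lists shared 0 positions, so its totals could not be compared in this way. By their values, listed positions have 1 or more edited reads in the edited library, and 0 edited reads, 10 or more reads and at least 80% of the unedited base in the control.

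Entries that repeat a position were joined. The strand is that of the main base in the control, and whether reads were counted by strand is not given in the sources used here. Copies of mitochondrial sequence in the nuclear genome could share reads, and none was named in the lists. Fisher's exact test ran on all positions with 10 or more reads in both libraries, with Benjamini-Hochberg adjustment and a threshold of 0.05. It was also run on simulated reads at the depths of the lists. Those reads were drawn without the selection for an edited read and for 0 in the control. The simulation is therefore no check of the test under that selection. For DDX41-ADARcd against ADARcd alone it also took positions where both had edited reads in their lists against the empty vector. Intervals are exact Clopper-Pearson 95% intervals, floors are 3 reads of the depth, and intervals in the text without a name are of the same kind.

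The rule for named positions takes, per list and gene, the position with most edited reads, and any with 5 or more or past the test. Ties in edited reads went to the higher level, which is the lower depth, and then to the lower position. Nuclear partners are the 4 genes with most positions per list, with ties kept. The members, gene lists and tests were chosen with earlier results of these data known. Alternatives were other minimums of reads and edited reads, Bonferroni adjustment, halved reads, edited plus unedited reads as denominator, repeated entries counted, and positions at 90% or more, or the one with most edited reads, left out. Position 8365 was left out as an alternative chosen after seeing the data. Python 3.11.15, pandas 2.3.3, SciPy 1.17.1 and Matplotlib 3.10.9 were used.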

Additional observations from a re-analysis of the deposited data

How the results depend on the processing

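The count of called positions of the 6 genes stayed at 0 in each comparison with Bonferroni adjustment, 20 reads in each library, 2 or more edited reads or halved reads. The smallest unadjusted p of the 6 genes in Fisher's exact test was 0.0892 before these changes. Adjustment cannot lower a p, the minimums leave it as it is, and halving removes edited reads. None of these settings could therefore raise the count. Requiring 100 reads in each library left 32 of the 83 DDX41-ADARcd positions and 50 of the 109 ADARcd positions, with the empty vector as control. The median level there was 0.0933% and 0.0612%, and the median read ratio 9.19 and 11.7, against 11.5 and 16.3 at all listed positions. With 2 or more edited reads, 14 positions were left for DDX41-ADARcd against the empty vector, 14 against ADARcd alone, and 20 for ADARcd alone against the empty vector. Their median levels were 0.209%, 0.228% and 0.124%, and their pooled edited shares 0.207%, 0.223% and 0.136%, against 0.123%, 0.127% and 0.0820% over all positions, because positions with 1 edited read are dropped. The median read ratio of ADARcd alone to the empty vector was then 12.9; the cause was not tested. The share with U or A before and G after was 0% in both lists of DDX41-ADARcd at 2 or more edited reads. Its interval was 0% to 23.2% against the empty vector and 0% to 24.7% against ADARcd alone. No position shared by both lists had 2 edited reads in both libraries, 0 in place of 7. The other 67 alternative values for counts, levels, ratios and shares, and the levels of the 18 named positions over edited plus unedited reads, moved by less than their intervals or by less than 1.5 times. Leaving out position 8365, chosen after seeing the data, was among them. No paired analysis was possible because there is 1 library per group.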

Other observations

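In COX1 the listed positions fell 7, 6 and 10 in 3 equal stretches from start to end of the gene for DDX41-ADARcd against the empty vector, and 13, 15 and 18 for ADARcd alone. COX3 had 1 of 16 positions in the last of these stretches for DDX41-ADARcd, and 5 of 24 for ADARcd alone. Of the 6 genes together, 43.4% of DDX41-ADARcd positions and 38.5% of ADARcd positions lay within 10 bases of another position of the same list. No share for positions placed at random was computed, so these shares do not show clustering. These are counts on 1 library each, with no test.

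The edited A was at the third codon position in 47.0% of the 83 DDX41-ADARcd entries and 37.8% of the 111 ADARcd entries, against 41.8% of all A of the 6 reading frames. In the vertebrate mitochondrial code A and G at the third position are read alike, so these changes leave the protein of that reading frame as it is. In the overlap of ATP8 and ATP6 the frames differ: position 8536 is at the third codon position in ATP8 and the first in ATP6. At the second position, where A to G changes the meaning of the codon, the shares were 20.5% and 24.3%, against 24.0% of all A.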
